A study of Rattus norvegicus with 8 samples.

Results

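The 9 genes described here encode the adrenergic receptors Adra1a, Adra1b, Adra1d, Adra2a, Adra2c and Adrb1 and the dopamine receptors Drd1, Drd2 and Drd5. They were taken by gene symbol from a table of the rat hippocampal transcriptome, in which 9 of the 9 symbols had a row. Each had 1 transcript row, so the receptors make up 9 of 16266 transcript rows and 9 of 13272 gene symbols. Every rat had both adrenal glands removed (ADX) and carried a jugular cannula, so neither group made adrenal corticosterone of its own. All had drunk corticosterone in saline while they recovered, replaced by saline alone before the infusion. The Vehicle group (4 rats) was infused for 30 min with 0.45% saline. The CORT group (4 rats) received 0.75 mg/mL corticosterone, as its 2-hydroxypropyl-β-cyclodextrin complex, in the same saline for the same time. The sample labels give Sprague-Dawley rats aged 3 to 4 months, whole hippocampus as the tissue and ZT2 (zeitgeber time, hours after lights on) as the time, and the titles call the vehicle samples untreated. The methods of the study instead describe younger, male Lister hooded rats killed 2 h after the infusion began, a difference in strain, age and time that the table itself cannot settle.

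Levels are given as FPKM, fragments counted on a transcript divided by its length in kilobases and scaled to the mapped fragments, so that levels can be compared between genes. The table holds 1 FPKM value per group, made by the authors over its 4 rats, so the spread between rats is not in the values. No test could be computed here from those values, and the authors' own test results in the same table were not used. No error or p-value is therefore given for any receptor, no difference was checked here against replicates, and neighbours in the order of levels can be called neither different nor alike. Ratios are CORT over Vehicle on the log2 scale with no pseudocount, and a 1.5-fold mark (0.58 on that scale) is used to describe size only. The number of reads behind each value is unknown. In whole tissue, fewer cells of a type and less RNA per cell cannot be told apart.

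Noradrenaline reaches the hippocampus mainly from the locus coeruleus, and dopamine from the locus coeruleus and the ventral tegmental area. Both act on receptors coupled to G proteins. Alpha-1 receptors couple to Gq and phospholipase C, alpha-2 and D2-like receptors couple to Gi and lower cAMP, and beta and D1-like receptors couple to Gs and raise it. In the hippocampus beta and D1-like signalling is best known for its part in synaptic plasticity and memory, functions that corticosterone also affects.

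The receptor transcripts were dominated by Adra1d and Adra2c in both groups. Of the 9 receptors, 7 were higher and 2 (Adra1a and Drd1) lower in CORT, and 55.0% of all rows were higher. The receptor log2 ratios ran from -0.26 to 0.90 with a median of 0.26, beside a median of 0.02 over all rows. Only Drd2 passed 1.5-fold, upwards, and no receptor passed it downwards. Of all rows, 4.21% were at least 1.5-fold higher and 4.91% at least 1.5-fold lower. At a smaller mark, a log2 ratio of 0.32 or more, Adra1d, Adra2a, Drd2 and Drd5 were higher (4 of 9), where 9.54% of all rows were, and 0 of 9 were lower. That share was not matched for level, and Drd2 and Drd5 lie at low FPKM, where rows past 1.5-fold were more common.

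**Figure D1:**
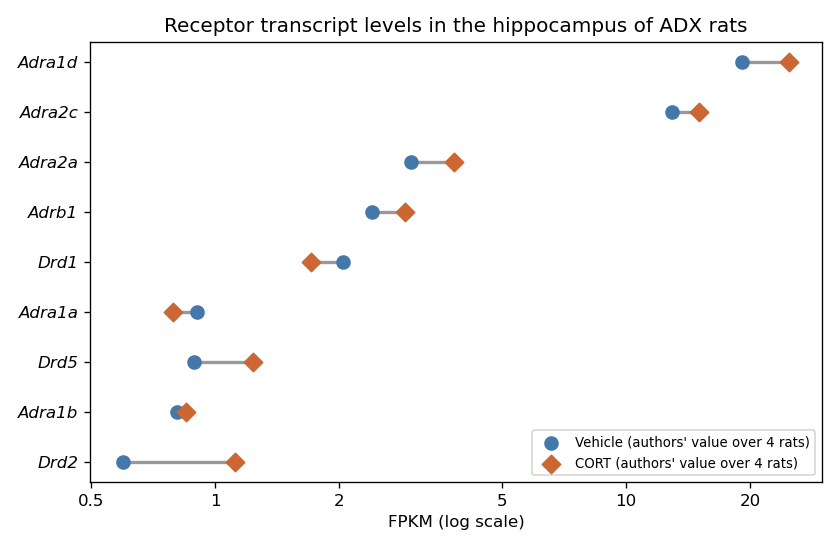
FPKM of the 9 receptors on a log axis, with a circle for the Vehicle and a diamond for the CORT group, each the authors' value over 4 rats, joined by a grey line. Adra1d and Adra2c stand at 13.0 FPKM or above in both groups, the others at 3.80 FPKM or below, and the longest line is that of Drd2.

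The alpha-1 receptors differed widely in level. Adra1d, the subtype that couples to Gq and is abundant in rat hippocampal pyramidal cells, was the highest of the 9 receptors, at 19.1 FPKM in Vehicle and 24.8 FPKM in CORT (1.30-fold, log2 ratio 0.38). It stood at percentile 69.5 of all rows in Vehicle and 75.2 in CORT. Its row (ENSRNOT00000028877.2) spans chr3:124129557-124145566 in the rn6 build, with coordinates as the table gives them. Adra1a, which shares the coupling, was at 0.901 FPKM in Vehicle and 0.789 FPKM in CORT (log2 ratio -0.19; ENSRNOT00000012736.3, chr15:43298793-43392451). Adra1b was at 0.809 FPKM in Vehicle and 0.849 FPKM in CORT (log2 ratio 0.07; ENSRNOT00000087937.1, chr10:29392761-29450644), the smallest ratio in size of any receptor here. Both were therefore below 1 FPKM in each group, and Adra1d made up 91.8% of the alpha-1 total in Vehicle and 93.8% in CORT.

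Both alpha-2 receptors were higher in CORT. These receptors act as autoreceptors on noradrenergic terminals and also lie on the target neurons. Adra2c was the second highest receptor, at 13.0 FPKM in Vehicle and 15.0 FPKM in CORT (1.16-fold, log2 ratio 0.22; ENSRNOT00000012322.3, chr14:80730306-80732010). Adra2a was at 3.00 FPKM in Vehicle and 3.80 FPKM in CORT (1.27-fold, log2 ratio 0.34; ENSRNOT00000071541.1, chr1:274766282-274769081). Adra2c thus exceeded Adra2a 4.32-fold in Vehicle and 3.95-fold in CORT. Adra2b, the remaining alpha-2 subtype, had no row in the table and is not analysed here.

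Of the beta receptors, Adrb1, which couples to Gs, was at 2.41 FPKM in Vehicle and 2.89 FPKM in CORT (1.20-fold, log2 ratio 0.26; ENSRNOT00000022813.2, chr1:277537584-277538985). Adrb3 had no row.

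The dopamine receptors were low, and their proportions differed between the groups. Drd1, a D1-like receptor coupled to Gs, was the highest of them at 2.05 FPKM in Vehicle and 1.71 FPKM in CORT (1.20-fold lower, log2 ratio -0.26; ENSRNOT00000030893.3, chr17:11101305-11103541). Drd5, the other D1-like receptor, was at 0.887 FPKM in Vehicle and 1.24 FPKM in CORT (1.39-fold, log2 ratio 0.48; ENSRNOT00000007074.2, chr14:77220578-77222006). The D1-like pair thus had ratios of opposite sign, neither past 1.5-fold, and its sum was 2.94 FPKM in Vehicle and 2.95 FPKM in CORT. Drd2, the Gi-coupled autoreceptor of dopamine neurons that also lies on their targets, was at 0.598 FPKM in Vehicle and 1.12 FPKM in CORT (1.87-fold, log2 ratio 0.90; ENSRNOT00000083419.1, chr8:53678776-53743642). Drd2 was the lowest of the 9 receptors in Vehicle and the 7th highest in CORT. Drd1 made up 58.0% of the dopamine receptor total in Vehicle and 42.1% in CORT, while Drd2 went from 16.9% to 27.5% and Drd5 from 25.1% to 30.4%. These shares rest on low FPKM values, 1 per receptor and group, and their difference was not tested. Drd3 and Drd4 had no row.

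The size of the Drd2 ratio has to be read against its level. Drd2 differed by 0.521 FPKM between the groups and had a mean of 0.858 FPKM, near the bottom of the table, which holds only 9 rows with a mean under 0.5 FPKM. Among rows with a mean from 0.5 to under 2 FPKM, 31.2% were past 1.5-fold in either direction, as was 1 of the 5 receptors there (Adra1a, Adra1b, Drd1, Drd2 and Drd5). That share of all rows was 8.92% from 2 to under 8 FPKM, where neither Adra2a nor Adrb1 passed, and 2.66% from 8 to under 32 FPKM, where neither Adra1d nor Adra2c did. With 1 FPKM added to both values the Drd2 log2 ratio was 0.41, below the mark, and with 0.1 FPKM added it was 0.80.

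**Figure D2:**
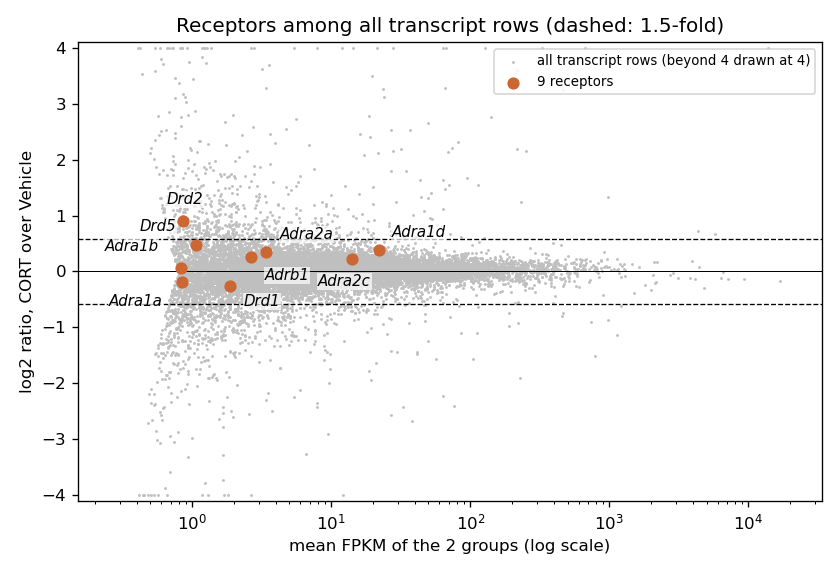
Log2 ratio of CORT over Vehicle against the mean FPKM of the 2 groups (log axis) for all 16266 transcript rows (grey) and the 9 receptors (orange), with dashed lines at 1.5-fold. The grey cloud is widest at low FPKM, where Drd2 (0.90) lies, and narrow at the level of Adra1d (0.38) and Adra2c (0.22).

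Summed by coupling class, 4 of the 5 sums were higher in CORT by 1.18-fold or more. The alpha-1 sum was 20.8 FPKM in Vehicle and 26.5 FPKM in CORT (1.27-fold), most of it Adra1d. The alpha-2 sum was 15.9 FPKM in Vehicle and 18.8 FPKM in CORT (1.18-fold). The D1-like sum was the exception at 1.00-fold. All 9 receptors together reached 42.7 FPKM in Vehicle and 52.3 FPKM in CORT (1.22-fold), of which the 6 adrenergic receptors held 91.7% and 92.2%. Adra1d and Adra2c alone held 75.1% and 76.3%.

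**Figure D3:**
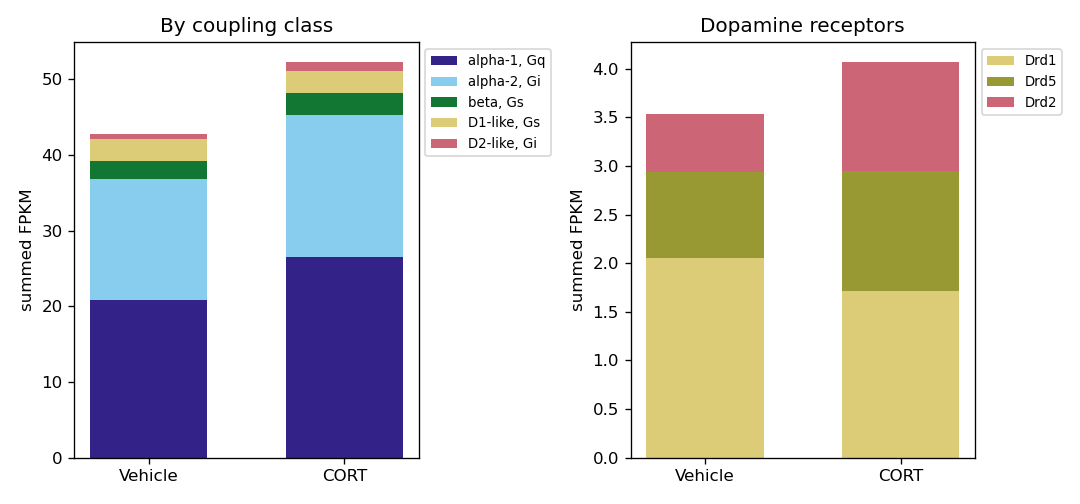
Stacked bars of summed FPKM in each group, by receptor class and G protein (left) and for the dopamine receptors alone (right), with no error bars because each group has 1 value. The total is 42.7 in Vehicle and 52.3 in CORT, the alpha-1 and alpha-2 blocks fill most of each bar, and in the right panel the Drd1 block is smaller and the Drd2 and Drd5 blocks are larger in CORT.

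By gene structure the receptors fell into 2 kinds. The loci of 5 receptors (Adra2a, Adra2c, Adrb1, Drd1 and Drd5) were 1401 to 2799 bases long, and these genes are known for coding sequences without introns. The other 4 (Adra1a, Adra1b, Adra1d and Drd2) spanned 16009 to 93658 bases. The receptors lower in CORT included one of each kind, Drd1 and Adra1a. No other row of the table overlapped any of the 9 loci. Whether fragments were counted by strand is not given in the sources used here, so transcripts from the opposite strand cannot be told apart from these.

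The promoters of Drd2 and Drd5, the receptors with the highest ratios, are shown with that of Adra1d, the receptor with the highest level. Each is the 250 bases before the annotated start, 5′ to 3′ on the strand of the gene, from RefSeq (GRCr8 build, to which the rn6 coordinates above were not converted). The Drd2 stretch is chr8:58605153-58605402 (plus strand), the Drd5 stretch chr14:76703345-76703594 (minus strand) and the Adra1d stretch chr3:139262332-139262581 (minus strand). Capitals mark GGGCGG on either strand (CCGCCC), the core of the GC box.
Drd2: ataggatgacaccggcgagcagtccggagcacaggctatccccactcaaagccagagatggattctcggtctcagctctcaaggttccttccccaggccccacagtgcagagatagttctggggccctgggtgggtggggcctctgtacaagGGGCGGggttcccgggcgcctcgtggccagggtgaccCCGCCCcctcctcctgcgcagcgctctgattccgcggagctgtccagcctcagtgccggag
Drd5: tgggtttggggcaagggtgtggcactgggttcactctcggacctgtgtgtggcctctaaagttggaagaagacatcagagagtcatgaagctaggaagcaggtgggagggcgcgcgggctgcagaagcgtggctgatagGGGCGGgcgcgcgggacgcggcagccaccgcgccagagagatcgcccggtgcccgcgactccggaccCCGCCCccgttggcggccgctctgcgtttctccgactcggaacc
Adra1d: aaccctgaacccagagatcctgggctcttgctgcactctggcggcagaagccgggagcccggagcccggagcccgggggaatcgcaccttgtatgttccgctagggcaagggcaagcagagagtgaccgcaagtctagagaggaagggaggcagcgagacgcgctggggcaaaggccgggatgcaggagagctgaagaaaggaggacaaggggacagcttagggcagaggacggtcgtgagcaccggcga
Drd2 and Drd5 each held 2 such matches, beginning 98 and 61 bases before the start in Drd2 and 111 and 44 bases before it in Drd5. The Adra1d stretch held none. Of the 8 receptors with a promoter in the RefSeq table (9 less Adra1a), 3 held the motif, the third being Adra2c, beside 30.5% of 33469 promoters. The half-site AGAACA, also searched on both strands, which is bound by corticosteroid receptors, was found in 0 of the 8 and in 17.5% of all promoters. The cAMP response element half-site TGACG, searched likewise, was found in 1 of the 8, Adrb1, and in 18.2% of all. GC content of the 8 ran from 51.2% in Drd1 to 80.4% in Adra2c, and 7 of the 8 were above the median of 51.2% over all promoters. These matches describe letters in the stretch searched and nothing about binding.

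Around the receptors, the lists of catecholamine genes held 62 symbols, of which 48 had a row (62 rows in all). Of these rows 41 were higher and 21 lower in CORT, with a median log2 ratio of 0.10, where 55.0% of all rows were higher. Past 1.5-fold there were 3 higher and 3 lower, beside the 4.21% and 4.91% of all rows given above. Of the synthesis genes Th, Ddc, Dbh and Pnmt had no row, and Gch1, which makes the cofactor of tyrosine hydroxylase, was at 0.859 FPKM in Vehicle and 0.455 FPKM in CORT (log2 ratio -0.92). Of the transporters Slc6a2, Slc6a3 and Slc22a3 had no row, and 3 of 3 with a row were lower, none past 1.5-fold. They included Slc29a4, a monoamine transporter of the plasma membrane (7.96 FPKM in Vehicle, 7.63 FPKM in CORT), and Slc18a2, the vesicular one (3.80 FPKM in Vehicle, 3.36 FPKM in CORT). The breakdown enzymes stayed within 1.5-fold, with Maob at 42.1 FPKM in Vehicle and 39.3 FPKM in CORT.

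Downstream of the receptors most rows were slightly higher in CORT, as were 55.0% of all rows, and the difference from that share was not tested. Of 11 rows of G protein alpha subunits 9 were higher and none passed 1.5-fold. The main row of Gnas, the Gs subunit used by beta and D1-like receptors, was at 388 FPKM in Vehicle and 447 FPKM in CORT (log2 ratio 0.21), and Gnai2, a Gi subunit, was at 160 FPKM in Vehicle and 149 FPKM in CORT (log2 ratio -0.10). Of 10 rows of adenylyl cyclases, which make cAMP, 7 were higher and 1 passed 1.5-fold downwards. That was the lesser row of Adcy6, at 2.19 FPKM in Vehicle and 0.590 FPKM in CORT (log2 ratio -1.90), while the main Adcy6 row was at 9.16 FPKM in Vehicle and 11.6 FPKM in CORT (log2 ratio 0.34). The phospholipase C beta rows, on the alpha-1 route, were higher in 2 of 5 with none past 1.5-fold, and Plcb1, the most abundant, was at 29.5 FPKM in Vehicle and 31.9 FPKM in CORT in its main row. Plcb3 was at 4.52 FPKM in Vehicle and 3.87 FPKM in CORT.

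The protein kinase A list was higher in 7 of 10 rows, with 1 past 1.5-fold. It was the lesser row of Prkar2b, a regulatory subunit, at 0.343 FPKM in Vehicle and 1.59 FPKM in CORT (log2 ratio 2.21), beside 15.1 FPKM in Vehicle and 15.0 FPKM in CORT in its main row. The cAMP phosphodiesterases, which break cAMP down, were higher in 8 of 10 rows, with 1 past 1.5-fold. In that Pde4d row the level was 2.44 FPKM in Vehicle and 4.14 FPKM in CORT (log2 ratio 0.76), and in the other Pde4d row 4.34 FPKM in Vehicle and 4.05 FPKM in CORT. The receptor kinases and arrestins, which switch active receptors off, were higher in 7 of 8 rows. A lesser row of Adrbk2, a kinase of beta receptors, passed 1.5-fold (1.47 FPKM in Vehicle, 2.25 FPKM in CORT), and its main row was at 7.26 FPKM in Vehicle and 8.19 FPKM in CORT. Adcy6, Prkar2b, Pde4d and Adrbk2 thus each passed the mark in 1 of 2 transcript rows and not in the other, whereas the receptors had 1 row each.

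**Figure D4:**
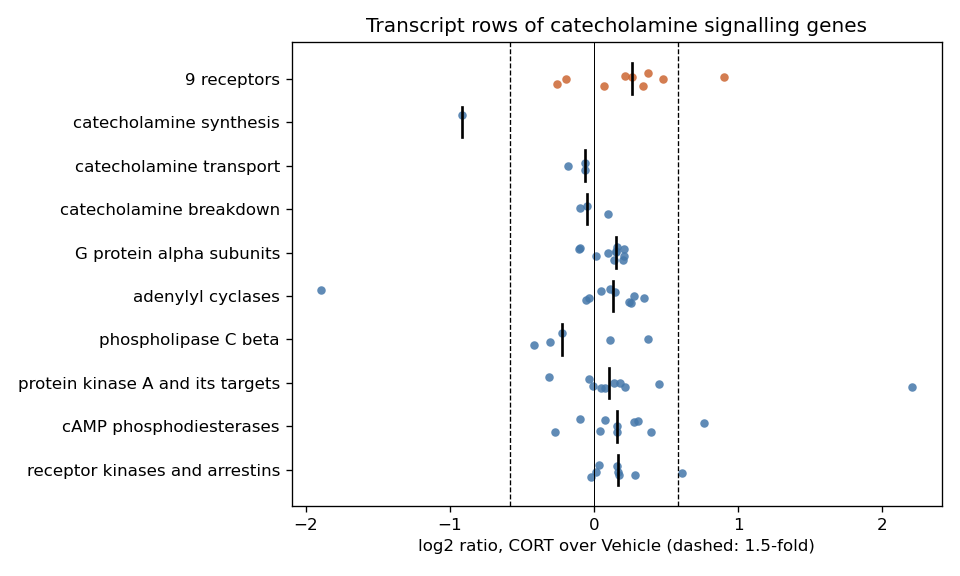
Log2 ratios of CORT over Vehicle for the 9 receptors (orange) and for the lists of catecholamine genes with a role before or after the receptors (blue), 1 point per transcript row, with a black bar at each median and dashed lines at 1.5-fold. The receptors run from -0.26 to 0.90, and most downstream points sit between 0 and 0.4, with others on both sides of that range. The downstream points past the dashed lines are single rows of Adcy6 (-1.90), Prkar2b (2.21), Pde4d (0.76) and Adrbk2 (0.61).

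Of all rows, 4.21% were at least 1.5-fold higher in CORT. In a list of genes that corticosteroid receptors are known to induce, chosen with earlier results of these data known, 8 of 9 rows were. Among them were Sgk1 (28.5 FPKM in Vehicle, 70.4 FPKM in CORT) and Per1 (10.2 FPKM in Vehicle, 19.7 FPKM in CORT), both with larger ratios than any receptor.

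Markers of cells around the hippocampus also differed between the groups. Beside the counts below, 4.21% of all rows were at least 1.5-fold higher and 4.91% at least 1.5-fold lower, shares not matched for level. Thalamic and habenular markers had 7 of 15 rows at least 1.5-fold lower and 3 at least 1.5-fold higher in CORT. Their sum was 88.4 FPKM in Vehicle and 64.7 FPKM in CORT. Meningeal fibroblast markers had 8 of 9 rows lower, 5 of them at least 1.5-fold. The sum of these was 126 FPKM in Vehicle and 89.0 FPKM in CORT over all 9 rows. Astrocyte markers had 3 of 14 rows at least 1.5-fold lower and 2 higher, with a median log2 ratio of -0.13. Their sum was 1728 FPKM in Vehicle and 1223 FPKM in CORT, most of that difference from Gfap (970.0 FPKM in Vehicle, 517 FPKM in CORT), and without Gfap 758 FPKM in Vehicle and 707 FPKM in CORT. Markers of striatal neurons, cells rich in Drd1 and Drd2, summed to 85.8 FPKM in Vehicle and 84.6 FPKM in CORT, with 2 of 11 rows at least 1.5-fold higher (among them 1 of Rxrg) and 3 lower (1 each of Penk, Syndig1l and Tac1). Interneuron markers were higher in 7 of 8 rows, none past 1.5-fold, with a sum of 537 FPKM in Vehicle and 659 FPKM in CORT. Hippocampal neuron markers, with 1 of 6 rows at least 1.5-fold higher and 0 lower, summed to 356 FPKM in Vehicle and 346 FPKM in CORT. Choroid plexus markers, with 0 of 7 rows past 1.5-fold, summed to 6781 FPKM in Vehicle and 6762 FPKM in CORT. Most of that sum was Ttr (6605 FPKM in Vehicle, 6598 FPKM in CORT), and of the 7 rows 2 were higher and 5 lower in CORT. No marker row was at 0 in either group. The part of these cells in the receptor values was not tested.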

How the data were processed

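RNA from the whole hippocampus of 8 adrenalectomized rats was sequenced as paired-end TruSeq stranded total RNA libraries. The deposited FPKM values were made by the authors with TopHat2 (2.0.10) and Cuffdiff (2.2.0) on rn6, after CASAVA 1.8.2, per the submitters' processing notes, with geometric normalization and pooled dispersion. Cuffdiff gave 1 value per group over 4 rats, so rats could be neither compared nor left out. The table also holds the authors' fold changes, test statistics, p-values and q-values for this contrast, which were not used. All rows had the status OK.

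Log2 ratios were computed in Python 3.11.15 with pandas 2.3.3 and numpy 2.4.6 from the FPKM values as deposited, and the code was tested on simulated data. All 9 receptors were named. From each other list, rows past 1.5-fold with at least 1 FPKM in one group were named, or else the 2 genes with the highest mean FPKM. For the marker and corticosteroid lists, only the rows used in the text are given. Some genes that this rule picks are not reported here. The members and lists were chosen with earlier results of these data known. Alternatives were pseudocounts, centring on the median of all rows, summed or highest rows per symbol, a filter of 1 FPKM and marks of 2-fold and of a log2 ratio of 0.32. Matches to promoter motifs were counted on both strands. The study's other experiments are not analysed here.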

Additional observations from a re-analysis of the deposited data

How the results depend on the processing

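Of 77 values under alternative settings, 66 stayed within 0.1 log2 units (or within 1.5 times, for counts) of the value reported, 11 moved and 0 changed sign. Much of this was fixed in advance. Each receptor had 1 row, so summing rows or taking the highest row could not change its value. A pseudocount cannot reverse a ratio, and counts have no sign, so the lack of sign changes says little about stability. With a pseudocount of 1 FPKM the log2 ratio was -0.088 for Adra1a, 0.41 for Drd2 and 0.24 for Drd5, receptors near that level, and 0 receptor rows were past 1.5-fold. The same pseudocount left 1 catecholamine row higher and 1 lower, as did the 2-fold mark, which 0 receptors passed. At a mark of 0.32 log2 units, 4 receptors and 7 catecholamine rows were higher. The remaining settings moved none of these. No paired analysis was possible because the table gives 1 value per group and no rat numbers, and for the same reason no replicate could be left out. With unknown depth, receptors under 1 FPKM carry no stated precision.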
